A study of Homo sapiens with 18 samples.

Results

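The comparison described here sets the merged xChIP peaks of linker histone H1.2 against those of H1.5 in HL-60/S4 cells. The genome (hg19, chromosomes 1 to 22 and X) was cut into windows of 100 kb, and the 28422 windows of 28529 with at least 50% known sequence were kept. In each window the value was the share of known bases inside a peak of each list, and the difference was H1.2 minus H1.5, in percentage points. The series held 18 samples, of which 6 entered this comparison, 3 immunoprecipitated with anti-H1.2 and 3 with anti-H1.5. All samples came from HL-60/S4, an established human myeloid leukemia line, grown without differentiation and fixed, and both antibodies were rabbit polyclonals. In xChIP the fixed chromatin was sonicated first and the antibody was added to the soluble fragments, whereas in xxChIP, shown only beside these values, the antibody met the permeabilized fixed cells before sonication. Peak positions hold no expression value, so the cell label could not be checked against markers.

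Linker histones bind where DNA enters and leaves the nucleosome and help to compact the chromatin fiber. Human somatic cells carry several H1 variants, among them H1.2 and H1.5, which share a globular domain and differ mostly in their tails. The variants are known to differ in how they are spread over the genome, and AT-rich, gene-poor DNA is usually the more compact part of a nucleus.

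Sequences from the loci with large differences are shown first, so that their base composition can be seen. For the 3 windows with the largest difference toward H1.5, 300 bases of hg19 were read on the plus strand at or next to the center of the longest H1.5 peak, outside annotated exons. The windows they come from had 44.2%, 38.4% and 43.7% GC, against a mean of 40.9% over all windows. Capitals mark CpG dinucleotides (C followed by G, which reads the same on both strands).
H1.5, intron of NBPF8, chr1:144176592-144176891: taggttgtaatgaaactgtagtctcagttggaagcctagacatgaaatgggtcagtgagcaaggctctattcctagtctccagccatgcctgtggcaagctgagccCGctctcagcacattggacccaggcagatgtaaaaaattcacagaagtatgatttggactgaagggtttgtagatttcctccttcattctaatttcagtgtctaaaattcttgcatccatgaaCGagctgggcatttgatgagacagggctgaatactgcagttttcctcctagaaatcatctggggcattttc
H1.5, between genes near FOXD4L2, chr9:42750817-42751116: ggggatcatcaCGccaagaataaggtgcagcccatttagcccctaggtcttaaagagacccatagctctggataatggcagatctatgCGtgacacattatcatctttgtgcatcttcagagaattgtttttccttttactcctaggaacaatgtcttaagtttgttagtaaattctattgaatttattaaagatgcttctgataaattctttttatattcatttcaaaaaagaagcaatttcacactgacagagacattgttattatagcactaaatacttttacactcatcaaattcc
H1.5, intron of NBPF20, chr1:148324567-148324866: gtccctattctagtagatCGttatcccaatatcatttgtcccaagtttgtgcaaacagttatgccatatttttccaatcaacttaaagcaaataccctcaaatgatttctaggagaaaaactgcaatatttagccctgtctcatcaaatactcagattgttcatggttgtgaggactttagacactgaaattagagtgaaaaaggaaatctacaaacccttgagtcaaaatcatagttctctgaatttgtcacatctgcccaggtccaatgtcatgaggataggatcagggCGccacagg
Each of these H1.5 stretches held 2 CpG. In 283569 stretches of 300 bases taken every 10 kb over the same chromosomes the median was also 2 CpG, the mean was 2.95, and 82.6% held at least 1.

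A second set shows the 250 bases before the transcription start site (TSS) of 3 genes, in the direction of transcription, with CpG again in capitals. DDX50 and MAGEA11 stood for the genes of at least 20 kb with the largest difference each way and no annotated exon in that stretch, leaving aside the repeated NBPF genes. ELANE, which encodes the granule protein neutrophil elastase, was picked after its values were seen.
DDX50, chr10:70660792-70661041: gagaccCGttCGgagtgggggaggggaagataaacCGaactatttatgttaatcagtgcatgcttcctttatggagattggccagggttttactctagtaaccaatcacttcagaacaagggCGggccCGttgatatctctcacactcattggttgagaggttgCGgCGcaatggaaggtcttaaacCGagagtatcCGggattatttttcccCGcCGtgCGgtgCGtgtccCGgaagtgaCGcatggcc
ELANE, chr19:850764-851013: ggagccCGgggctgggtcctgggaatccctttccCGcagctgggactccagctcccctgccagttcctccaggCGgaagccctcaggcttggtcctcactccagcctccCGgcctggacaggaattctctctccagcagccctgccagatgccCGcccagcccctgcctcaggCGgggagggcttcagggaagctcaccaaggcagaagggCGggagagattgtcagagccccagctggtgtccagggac
MAGEA11, chrX:148769644-148769893: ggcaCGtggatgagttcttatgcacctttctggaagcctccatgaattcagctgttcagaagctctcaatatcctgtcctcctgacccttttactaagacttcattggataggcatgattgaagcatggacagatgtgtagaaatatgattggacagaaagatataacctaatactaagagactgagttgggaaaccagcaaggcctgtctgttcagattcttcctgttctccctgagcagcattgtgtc
These stretches held 15 CpG for DDX50, 7 for ELANE and 1 for MAGEA11. Over all 20098 protein-coding genes the mean was 15.0. It was 16.2 before the TSS of the 7099 genes whose promoter was called H1.2-higher, and 12.1 before those of the 1153 called H1.5-higher. A count of CpG in these letters is a description of the sequence and no more.

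H1.2 peaks covered a mean of 26.4% of a window and H1.5 peaks 16.3%, with medians of 18.7% and 13.9%. Each list is 1 merge of 3 replicates, without heights or read counts, so the depth is unknown, no spread between replicates exists, and no value below carries a p-value. The mean difference was 10.1 percentage points and the median 4.63, the quartiles were -2.35 and 17.0, and the extremes were -71.9 and 94.6. H1.2 was higher in 18748 windows, or 66.0%, H1.5 in 9635, and 39 were equal. The 95% Wilson interval of 65.4% to 66.5% covers counting error only. It is too narrow even for that, because it takes windows as independent and neighbors are alike. Because H1.2 peaks cover more of the genome, the H1.2 majority depends on the scale. With each list scaled to the same mean coverage, H1.2 was higher in 42.2% of windows.

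A window was called H1.2-higher or H1.5-higher at a difference of at least 25 percentage points, a rule of size. H1.2-higher windows numbered 4980, or 17.5% of all windows, and H1.5-higher windows numbered 85, or 0.299%. At 50 percentage points the counts were 1652 (5.81%) and 5 (0.0176%). The closest windows on either side of the threshold were at 25.005 and 24.994 for H1.2, and at -25.1 and -24.8 for H1.5. With scaled lists the shares called were 8.23% and 3.27%, and without peaks of 20 kb or more they were 4.82% and 2.33%. Broad coverage was mostly H1.2. Windows covered to 50% or more numbered 4048 for H1.2 and 492 for H1.5. Peaks of 20 kb or more held 36.1% of the bases in the H1.2 list and 10.1% of those in the H1.5 list.

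**Figure D1:**
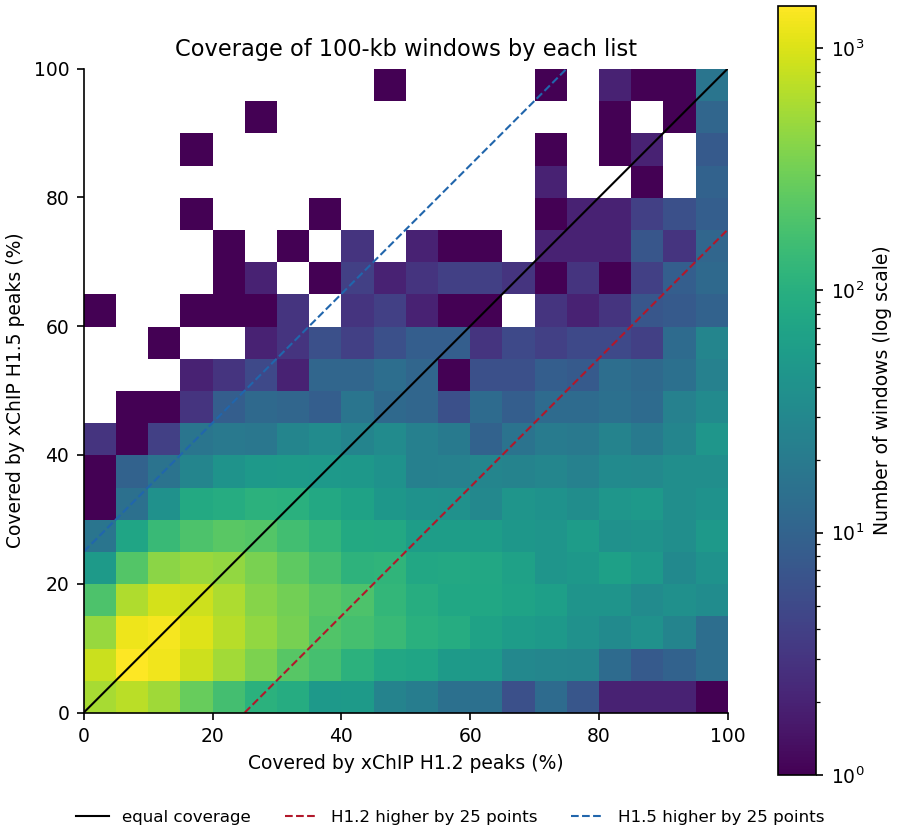
Share of known bases covered by xChIP H1.2 peaks (x axis, %) and xChIP H1.5 peaks (y axis, %) in 28422 windows of 100 kb, as the number of windows per square of 5 by 5 percentage points (log color scale). The solid line marks equal coverage and the dashed lines a difference of 25 points. The field of 4980 windows below the lower dashed line reaches full H1.2 coverage, whereas 85 windows lie above the upper one.

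In H1.2-higher windows the lists had about as many peaks as each other, with means of 5.44 H1.2 and 5.62 H1.5 peaks per window, but H1.2 covered 65.0% and H1.5 20.4%. In H1.5-higher windows H1.5 covered 51.2% and H1.2 18.9%. These levels follow from the rule that chose the windows.

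The difference ran with GC content, the share of G and C bases. H1.2-higher windows had a mean GC content of 46.5% and 1.75 TSS of protein-coding genes, the only starts counted, and 25.3% of them held none. H1.5-higher windows had 38.7% GC and 0.365 TSS, and 75.3% held no TSS. All windows had 40.9% GC and 0.706 TSS. Over the windows, Pearson's r of the difference was 0.606 with GC content, 0.631 with CpG per kb, 0.414 with the number of TSS and 0.197 with the share of bases in genes (n = 28422 windows, which share the lists and whose neighbors are alike, so no p is given). On single chromosomes r with GC ran from 0.432 on chromosome 22 to 0.694 on chromosome 21. Without peaks of 20 kb or more in either list, r with GC was 0.292.

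When windows were ordered by GC content and split into deciles, H1.2 coverage was higher in every step, from 11% in the most AT-rich decile to 51.1% in the most GC-rich. H1.5 coverage stayed between 15.1% and 17.6%. The mean difference went from -4.08 to 33.5 percentage points and was first above 0 in decile 3 (36.6% to 37.7% GC), at 0.219. H1.2 was the more extensive variant in 26.6% of windows of the lowest decile and in 97.5% of those of the highest. With scaled lists the difference went from -10.8 to 18.3 and was first above 0 in decile 7. The xxChIP lists ran the other way over the same deciles. Their H1.2 coverage started at 31.5% and ended at 8.24%, and their H1.5 coverage started at 25.4% and ended at 8.70%.

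**Figure D2:**
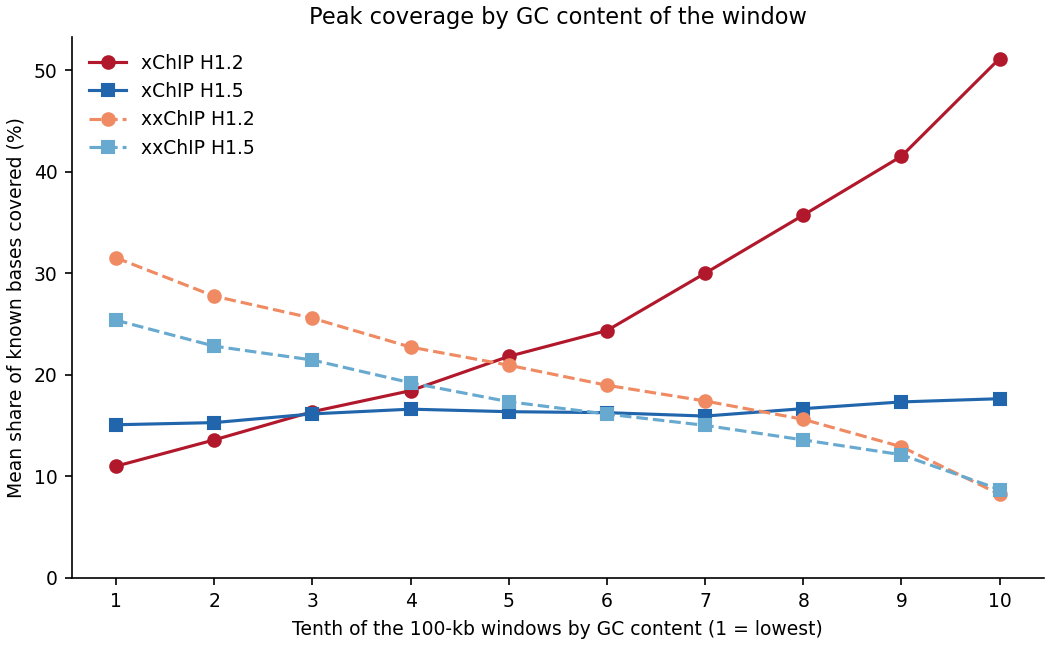
Mean share of known bases covered (y axis, %) in deciles of the 100-kb windows ordered by GC content (x axis), for xChIP (solid) and xxChIP (dashed) lists of H1.2 (circles) and H1.5 (squares). xChIP H1.2 climbs from 11% to 51.1%, xChIP H1.5 stays between 15.1% and 17.6%, and both xxChIP lists fall.

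The rise was also present away from the starts of protein-coding genes, the only TSS counted here. In windows without a TSS, the difference went from -4.04 percentage points in the lowest GC decile to 23.2 in the highest, and in windows with at least 1 TSS from -4.62 to 37.01. H1.5 coverage moved little with gene density as well. It was 15.4% in windows with no TSS and 18.9% in windows with 7 or more, while H1.2 coverage went from 19.6% to 56.9%. Toward the chromosome ends H1.2 was also the higher variant, with a mean difference of 17.98 percentage points in the decile of windows nearest to an end and 4.61 in the decile farthest away. The relation was weak and not shared by all chromosomes, with r of the difference with distance to the end of -0.159 over all windows, -0.524 on chromosome 21 and 0.204 on chromosome 11.

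All 23 chromosomes had a mean difference above 0, with a mean of 11.04 and an SD over chromosomes of 4.47 percentage points. The highest were chromosome 19 at 23.8 (37.2% H1.2, 13.4% H1.5), chromosome 16 at 19.3 (27.0% and 7.67%) and chromosome 17 at 19.03 (30.3% and 11.2%). The lowest were X at 4.53 (14.7% and 10.2%), chromosome 4 at 6.09 (23.5% and 17.4%) and chromosome 5 at 6.29 (21.6% and 15.3%). Under equal scaling 9 of the 23 were above 0, among them 16, 17 and 19, whereas X, 4 and 5 fell below 0.

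These chromosomes reached their values in different ways. Chromosome 19 had the most H1.2 coverage, but chromosome 16 stood out by having the least H1.5 coverage of the 23. Against the mean of windows in the same GC decile, chromosome 16 stood at -8.96 percentage points in H1.2 and -9.12 in H1.5, which left its difference at 0.161. Chromosome 22 had the lowest difference by this measure, at -11.4 percentage points, with -10.1 in H1.2 and 1.32 in H1.5. Within chromosomes the arms differed too, with a mean difference of 32.4 on the part of chromosome 19 before its longest assembly gap and 17.1 after it. On chromosome 6 the values were 15.9 and 6.03, and on chromosome 20 they were 4.98 and 18.8.

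**Figure D3:**
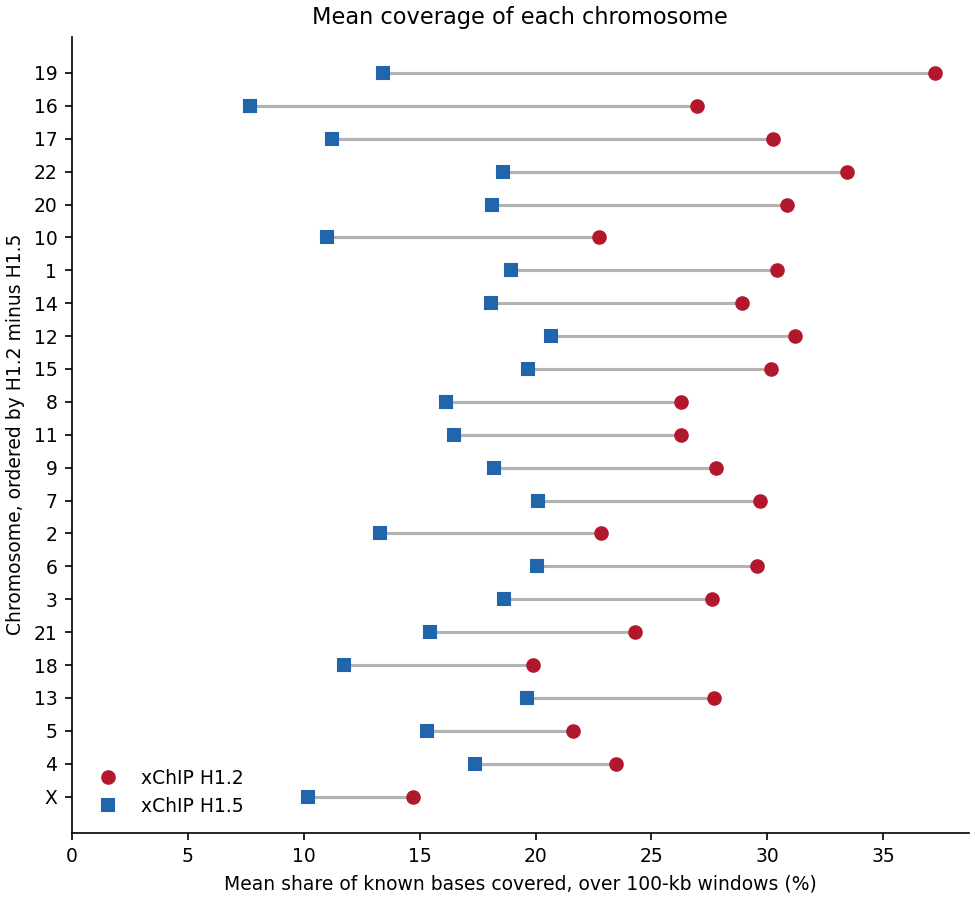
Mean share of known bases covered by xChIP H1.2 (circles) and xChIP H1.5 (squares) in the 100-kb windows of each chromosome (x axis, %), with chromosomes ordered by H1.2 minus H1.5. H1.2 lies to the right of H1.5 on all 23 (9 of 23 with scaled lists), with the widest gap on chromosome 19 (23.8 percentage points) and the narrowest on X (4.53). Each point is 1 merged list, so no error bar is drawn.

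Part of the H1.2-higher windows lay side by side in long domains. The 4980 H1.2-higher windows formed 1992 runs of neighbors, 978 of them a single window and 55 of 10 windows or more. Of the windows, 40.6% were in runs of at least 5. The 85 H1.5-higher windows formed 82 runs, 79 of them a single window and none longer than 2 windows. Since 17.5% of windows were called H1.2-higher and 0.299% H1.5-higher, run lengths would differ from the call rates alone, so they do not compare how the variants cluster. Over all windows, r between the difference in a window and in its neighbor was 0.625, and it was 0.288 at 10 windows and 0.122 at 50.

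The longest H1.2 run spanned 27 windows at the start of chromosome 16 (chr16:100001-2800000), with 60.5% H1.2 and 7.19% H1.5 coverage and 123 protein-coding genes. It runs from the alpha-globin cluster to the tumor suppressor TSC2 and the polycystic kidney disease gene PKD1. TSC2 was covered to 60.7% by H1.2 and 4.07% by H1.5, PKD1 to 52.1% and 4.04%, and AXIN1, a scaffold of the Wnt pathway, to 72.7% and 1.69%. Of the globin genes, only HBA2 and HBA1 were looked at, and both had less H1.2 coverage than the run as a whole. HBA2 was covered to 25.1% by H1.2 and 0% by H1.5, and HBA1 had no covered base in either list, and since they are near-identical copies and reads with several matches were dropped, both values are uncertain.

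The next runs were chr1:27200001-29600000 and chr19:2900001-5300000, of 24 windows each. The chromosome 1 run was covered to 87.3% by H1.2 and 38.6% by H1.5, and there the replication protein gene RPA2 was covered to 100% by both, while FGR, a Src-family kinase gene of myeloid cells, had 94.1% and 39.4%. In the chromosome 19 run (74.0% and 13.9%) the kinase gene MAP2K2 had 87.6% and 11.6% and UHRF1, which recruits the maintenance DNA methyltransferase, 86.5% and 14.3%. EEF2, the translation elongation factor gene of the same run, had 0% in both lists. Runs of 20 windows were found at chr7:4100001-6100000, chr19:500001-2500000 and chr19:17900001-19900000. In the first, ACTB (beta-actin) had 100% H1.2 and 30.3% H1.5, in the second STK11 had 73.0% and 18.9%, and in the third JAK3 had 86.3% and 31.6%. These genes were chosen among the members of each run for their known roles. Coverage by xxChIP H1.2 was between 1.48% and 7.97% in these runs.

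The single window with the largest difference toward H1.2 was chr11:9400001-9500000, at 100% H1.2 and 5.43% H1.5. It lay inside 1 H1.2 peak of 216177 bp and held IPO7, a nuclear import receptor gene, and the transcription factor gene ZNF143. IPO7 was covered to 100% and 4.72%. Then came chr14:93600001-93700000 (99.4% and 5.58%), with MOAP1, LYSET, GON7 and UBR7, and chr9:19100001-19200000 (100% and 6.72%), with PLIN2, which coats lipid droplets, and the start of HAUS6. PLIN2 was covered to 100% and 2.50%. The other 7 windows held NFIC and DOHH on chromosome 19, SPINK2 on 4, ABRAXAS2 on 10, MELK on 9, TFAP2C on 20, and CLIP1, ZCCHC8 and RSRC2 on 12, and a window at chr16:21500001-21600000 held no protein-coding gene. Of the 10 windows, 6 lay inside a single H1.2 peak, and H1.5 covered between 4.94% and 8.18% of each.

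Toward H1.5 the leading windows were of another kind. The largest difference was at chr1:144100001-144200000 (16.1% H1.2, 88.0% H1.5), followed by chr9:42700001-42800000 (27.3% and 90.6%) and chr1:148300001-148400000 (18.6% and 79.6%). They hold NBPF8, CBWD7 with FOXD4L2, and NBPF20, members of families with near-identical copies, where reads that match several places were dropped, so these values are uncertain. The same windows were also high in xxChIP, between 61.2% and 85.7%. Of the 10 leading windows 5 had under 100% known sequence and 5 held no protein-coding gene. Among all 85 H1.5-higher windows, 18 (21.2%) had under 100% known sequence, against 1.21% of all windows, and whether assembly gaps or repeated sequence take part in these values was not tested.

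The fourth window, chr1:16600001-16700000, had all of its sequence known. H1.5 covered 63.7% of it and H1.2 4.13%, and xxChIP H1.2 and H1.5 covered 5.58% and 4.06%. A single H1.5 peak of 67017 bp ran over the divergent promoters of FBXO42, an F-box gene, and SZRD1. FBXO42 was covered to 9.29% by H1.2 and 45.0% by H1.5, and SZRD1 to 1.09% and 79.6%. The H1.2 list had a peak of 1.51 kb on the SZRD1 start, within the H1.5 domain. The fifth window, chr6:117400001-117500000, was covered to 98.4% by a single H1.5 peak of 107511 bp and to 46.8% by H1.2, and it held no protein-coding gene. On chromosomes 10, 11, 17 and 18 no window was H1.5-higher.

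Across the 20098 protein-coding genes, gene bodies were covered to a median of 26.4% by H1.2 and 10.3% by H1.5. H1.2-higher genes, by the same rule of 25 percentage points, numbered 7477, or 37.2%, and H1.5-higher genes 463, or 2.3%. With scaled lists the shares were 25.3% and 5.85%. For promoters (1000 bp on either side of the TSS) 7099 were H1.2-higher (35.3%) and 1153 H1.5-higher (5.74%). The H1.2 lead was widest in genes of 10 to 50 kb, with a median difference of 20.7 percentage points, and was 12.8 at 50 to 200 kb, 4.58 at 200 to 500 kb and 0.803 at 500 kb or more. Mean GC content was lower at each of these steps, from 46.9% to 39.0%. The 5235 genes under 10 kb did not follow this order, with a median difference of 0 and the highest mean GC content, 52.4%. Their mean coverage was still higher by H1.2, at 34.2% against 10.5% by H1.5. Of these genes 36.7% were H1.2-higher and 5.31% H1.5-higher.

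Complete coverage by the peaks of a single list was found both ways. It describes called peaks, and the absence of a peak does not show that a variant was absent. H1.2 covered all of a gene and H1.5 none of it for 747 genes, and the reverse held for 42. Among the 11628 genes of at least 20 kb the counts were 24 and 0. The longest of the 24 was DDX50, an RNA helicase gene (ENSG00000107625, chr10:70661042-70706603, plus strand), which lay in an H1.2 peak of 80.1 kb. The others named by the rule of length were LRRC43, TUBD1 (delta-tubulin), SHISA5, RABEP2, ODAD4, ZBTB8B, GTF3C2 (a subunit of RNA polymerase III factor TFIIIC), CTSH (the lysosomal protease cathepsin H), PHAX (an adaptor for snRNA export), MRPL45 (mitochondrial ribosome) and MOB3A. The promoters of all 12, which overlap the gene bodies they were chosen by, were covered to 100% by H1.2 and to 0% by H1.5. The same held for 3838 of all 20098 promoters.

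The 12 genes of at least 20 kb with the largest difference toward H1.5 included 4 NBPF genes (NBPF14, NBPF8, NBPF20 and NBPF24), with the limit on repeated copies given above. SZRD1, described above, ranked second. MAGEA11, a cancer/testis antigen gene (ENSG00000185247, chrX:148769894-148798928, plus strand), had 0% H1.2 and 72.3% H1.5, with its promoter covered to 100% by H1.5. CLEC6A, the gene of the C-type lectin receptor dectin-2, had 9.43% and 57.9%, and GLIPR1L1 20.9% and 67.3%. TFAP2A, an ectodermal transcription factor gene, had 0% and 45.0%, and LEFTY1, a Nodal antagonist, 0% and 43.8%. RBM34, an RNA-binding protein gene, had 31.7% and 79.2%, with a promoter covered only by H1.5, and POFUT2, an O-fucosyltransferase gene, 11.4% and 53.8%. In 10 of the 12 the promoter had no H1.2-covered base, and those of NBPF8, NBPF24, LEFTY1 and POFUT2 had no H1.5-covered base either. Over all genes the median promoter coverage by H1.2 was 0%, and 8997 of 20098 promoters were uncovered in both lists. The 12 genes were chosen for low H1.2 against H1.5 over gene bodies, which promoters overlap.

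**Figure D4:**
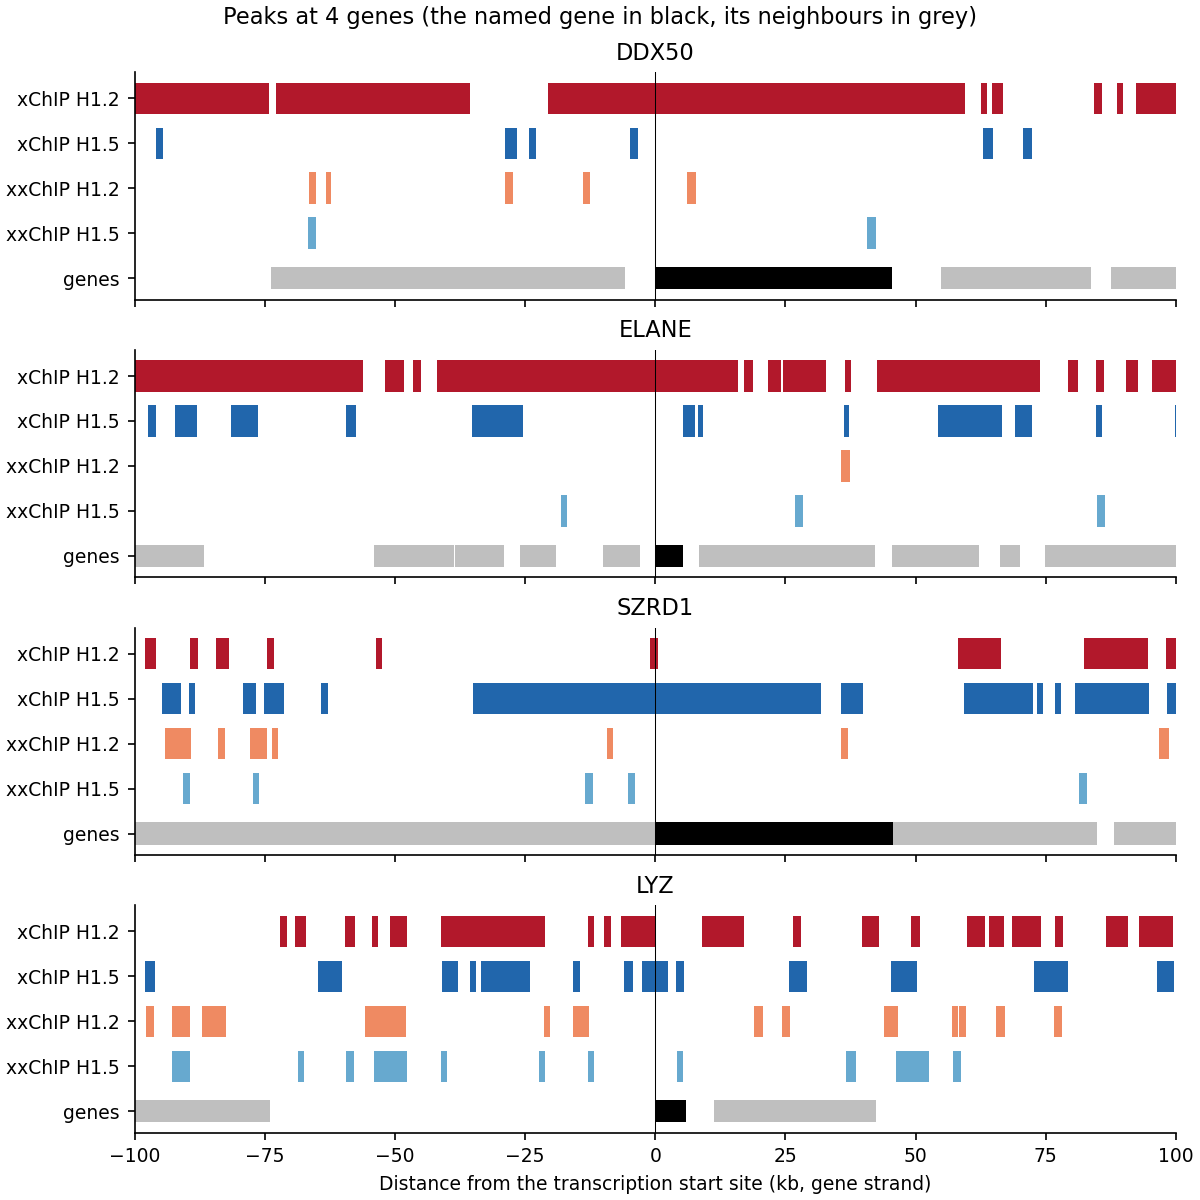
Peaks of the 4 lists within 100 kb of the TSS of DDX50, ELANE, SZRD1 and LYZ (x axis, distance in kb along the gene's strand). Bars are merged peaks, cut at the edges, the named gene is black and its neighbors are grey. A single H1.2 peak spans DDX50 (80.1 kb) and another ELANE (58.0 kb), while a single H1.5 peak of 67.02 kb covers the start of SZRD1, and short peaks of both variants meet at the start of LYZ, whose product is lysozyme.

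The granule protein list, made up mostly of proteins in the granules of neutrophils and their precursors at various stages, had members at both extremes. Of 17 genes 6 were H1.2-higher, or 35.3% against 37.2% of all genes, and 1 was H1.5-higher. The median difference was 17.1 percentage points against 12.7 over all genes, and it was 0 without peaks of 20 kb or more and 0 for promoters. ELANE, PRTN3 (proteinase 3) and CAMP (cathelicidin) had 100% H1.2 and 0% H1.5, and AZU1 (azurocidin) had 100% and 7.22%. ELANE, PRTN3 and AZU1 lie next to each other on chromosome 19 within an H1.2 peak of 58.0 kb, so they are not independent. BPI and LCN2 (lipocalin 2) made up the 6. MPO, myeloperoxidase, had 17.1% and 0%. LYZ, the lysozyme gene, went the other way, with 2.48% H1.2 and 65.9% H1.5 over the gene, and its promoter had 57.2% and 100%. CTSG, CD63, RNASE2, RNASE3, MMP8 and SERPINB1 had no covered base in either list.

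The myeloid transcription factor genes had a median difference of 9.05 percentage points, below that of all genes, with 5 of 17 H1.2-higher (29.4%, against 37.2% of all genes) and 0 H1.5-higher. The median was 0.883 with scaled lists and 0 without peaks of 20 kb or more. CEBPB and CEBPD had 100% H1.2 and 0% H1.5, and CEBPE, which drives granulocyte maturation, 67.4% and 0%. GATA1, the erythroid factor gene, had 77.8% and 0%, and CBFB, the partner of RUNX1, 38.2% and 9.99%. SPI1, which encodes PU.1, was covered to 100% and 76.4%, a difference of 23.6. Scaling multiplied H1.2 coverage by 0.809 and H1.5 coverage by 1.31, which turned the SPI1 difference toward H1.5. Since its H1.2 coverage was already at the ceiling of 100%, that turn follows from the factors and says nothing further about the gene. ETV6 was lower in H1.2, at 6.61% and 15.3%, and CEBPA, IRF8 and EGR1 had no covered base in either.

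The lists of RNA polymerase II subunit, ribosomal protein and glycolysis genes, the last 2 with paralogs such as RPL22L1 and ALDOC, had the highest medians. For the 12 subunit genes of RNA polymerase II the median was 55.1 percentage points. Of these, 9 were H1.2-higher (75%, against 37.2% of all genes) and 0 H1.5-higher (against 2.3%). POLR2D, POLR2L and POLR2I had 100% H1.2 and 0% H1.5, and POLR2A, the gene of the largest subunit, 66.4% and 12.9%. POLR2C had no covered base in either. The 87 cytosolic ribosomal protein genes had a median of 40.6 percentage points. Of these, 51 were H1.2-higher (58.6%, against 37.2% of all genes) and 3 H1.5-higher, near the 2.3% of all genes. RPL35, RPL13A and RPS21 had 100% and 0%, whereas RPLP1 had 0% and 41.1% and RPL22L1 had 0% and 26.8%. Of the 18 glycolysis genes 12 were H1.2-higher (66.7%, against 37.2% of all genes) and 0 H1.5-higher, with a median of 36.5 percentage points. GAPDH, TPI1 and PGAM1 had 100% and 0%, LDHA had 74.5% and 10.1%, and ALDOC had 23.4% and 26.5%. These lists stayed above 0 with scaled coverage, at medians of 41.4, 25.7 and 25.8, but without peaks of 20 kb or more the medians of the polymerase and ribosomal lists were 0 and that of the glycolysis list was 8.95.

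Genes of the nuclear lamina and envelope, the compartment against which much compact chromatin lies, had a median of 20.0 percentage points, with 5 of 13 H1.2-higher (38.5%, against 37.2% of all genes) and 0 H1.5-higher. The median was 4.76 with scaled lists and 0 without peaks of 20 kb or more. LMNB1 (lamin B1) had 78.6% H1.2 and 10.6% H1.5, and LMNA, the lamin A and C gene, 78.7% and 44.4%. LBR, the lamin B receptor gene, had 5.81% and 21.95%, and its promoter had 17.1% and 70.5%. Among the 8 linker histone genes, 3 were H1.2-higher (37.5%, against 37.2% of all genes) and 0 H1.5-higher, with a median of 0. H1-5, which encodes H1.5, was covered to 100% by H1.2 and 0% by H1.5, and H1-2, which encodes H1.2, to 26.0% and 0%. In 5 of the 8 neither list had a covered base. All 8 are shorter than the median H1.2 peak (2335 bp), so a single peak edge can set such a value. The 45 core histone genes on chromosome 6 went both ways, with a median of 0. Of these, 11 were H1.2-higher (24.4%, against 37.2% of all genes). Another 5 were H1.5-higher, against 2.3% of all genes and 5.31% of genes under 10 kb. H4C3 and H2AC17 had 100% and 0%, and H3C3, H3C10, H2AC12 and H2BC13 had 0% and 100%.

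**Figure D5:**
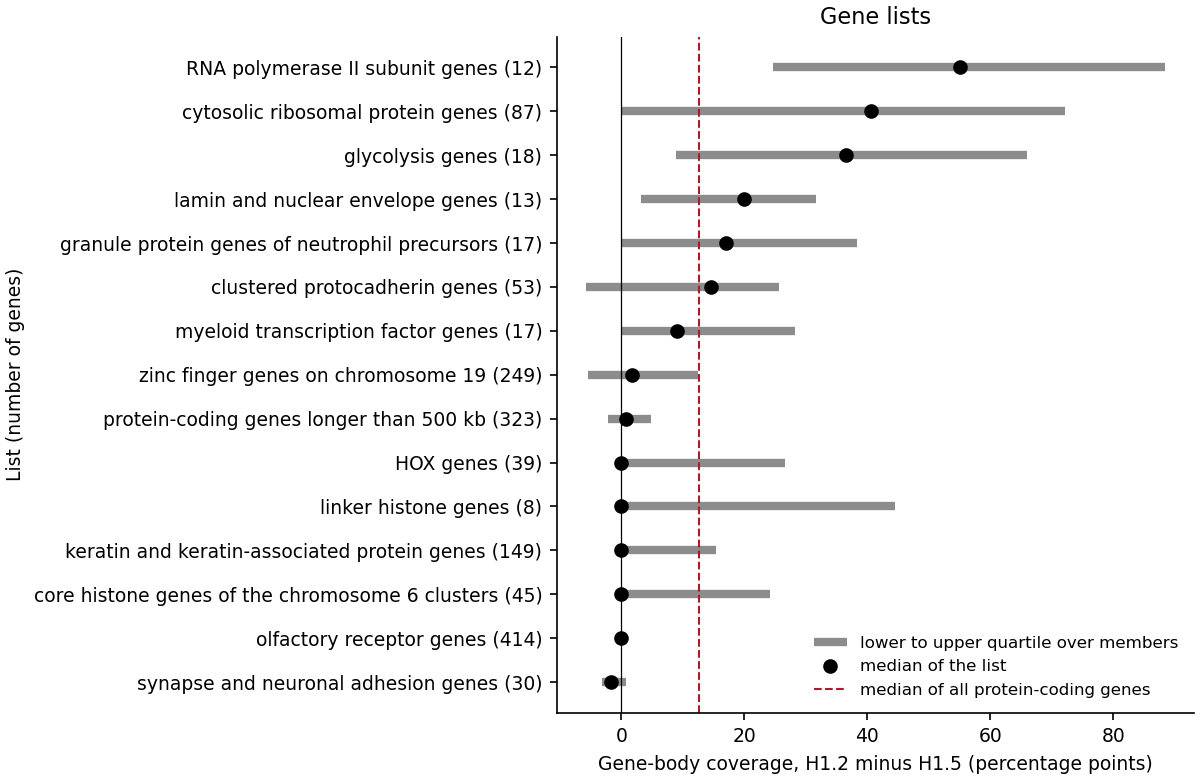
Gene-body coverage, H1.2 minus H1.5 in percentage points (x axis), for 15 gene lists, with the median of each list (points) and the quartiles over its members (bars). The dashed line is the median of all protein-coding genes (12.7). RNA polymerase II subunit genes sit highest at 55.1 and synapse genes lowest at -1.73. With scaled lists the median of genes longer than 500 kb turns to -5.65, and the bars show the spread over genes, not over replicates.

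The 39 HOX genes, which set position along the body axis, had a median of 0. Of these, 12 were H1.2-higher (30.8%, against 37.2% of all genes). Another 3 were H1.5-higher, against 2.3% of all genes and 5.31% of genes under 10 kb. HOXC8 and HOXD8 had 100% H1.2 and 0% H1.5, and HOXA10 had 73.9% and 0%. All 3 H1.5-higher members were HOXB genes, with HOXB9 at 39.3%, HOXB13 at 32.6% and HOXB4 at 29.2% H1.5 and no H1.2, while 3 other HOXB genes were H1.2-higher. The protocadherin clusters on chromosome 5 differed by cluster. The 22 PCDHG genes had a median difference of 23 percentage points, the 16 PCDHB genes 0 and the 15 PCDHA genes -6.30. Of all 53 genes 14 were H1.2-higher (26.4%, against 37.2% of all genes) and 2 H1.5-higher, with a median of 14.6. Because transcripts of the PCDHA and of the PCDHG cluster share their last exons, gene bodies in a cluster overlap and count some bases repeatedly.

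Olfactory receptor genes, silent outside the nose in most cells, had no covered base in either list for 259 of 414. Of the 414, 40 were H1.2-higher (9.66%, against 37.2% of all genes). Another 34 were H1.5-higher, against 2.3% of all genes and 5.31% of genes under 10 kb. The median over the 414, fixed by the uncovered genes, was 0. Many have close relatives in the genome, so single values are uncertain. Among 149 keratin and keratin-associated genes 31 were H1.2-higher (20.8%, against 37.2% of all genes) and 6 H1.5-higher, and 98 had no covered base. KRT18, a simple-epithelium keratin, had 100% and 0%. The 249 zinc finger genes of chromosome 19, many of which repress transposable elements, had a median difference of 1.68 percentage points, on the chromosome with the highest mean difference. Of the 249, 29 were H1.2-higher (11.6%, against 37.2% of all genes) and 9 H1.5-higher. ZNF101 had 100% H1.2 and 13.9% H1.5, and ZNF784 had 0% and 37.1%.

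The 323 genes of more than 500 kb had a median of 0.803 percentage points, and of -5.65 with scaled lists. Of these, 6 were H1.2-higher (1.86%, against 37.2% of all genes) and 0 H1.5-higher (against 2.3%). CALN1 on chromosome 7, a calcium-binding protein gene of the brain, had the largest difference, at 60.1% H1.2 and 18.9% H1.5, and SEMA3A, an axon guidance gene, the lowest, at 14.3% and 25.0%. Of the 30 synapse and neuronal adhesion genes, none was called either way, against 37.2% of all genes called H1.2-higher and 2.3% H1.5-higher. All but CNTN6, CDH8, CNTNAP4 and CDH10 are longer than 500 kb, a length at which 1.86% were H1.2-higher and 0 H1.5-higher. The absence of calls is therefore not particular to synapse genes. The median of the 30 was -1.73, the only list median below 0. CDH10 had 7.80% and 17.4%, and GRID1, a glutamate receptor subunit gene, 19.02% and 8.45%. Median coverage of the 30 genes was 10.7% by H1.2 and 11.9% by H1.5, and their median GC content was 36.5%.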

How the data were processed

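The authors ran xChIP for H1.2 and H1.5 in triplicate on fixed HL-60/S4 cells. They mapped the paired-end reads by Bowtie2 (build hg19), retained only those that mapped uniquely, used MUSIC with its defaults to find enriched regions, and merged the triplicates. Versions of these tools are not given in the sources used here. Each deposited file gives chromosome, start and end of the merged peaks, positions with no other unit or score. A merged peak can be longer than the peak of any 1 replicate, and the lists do not record replicate support. The 6 Input samples were not analysed here.

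Covered bases were counted on GRCh37, which has the coordinates of hg19, in windows of 100 kb with at least 50% known sequence, which held 2833 Mb, and in the gene bodies and promoters (TSS ± 1000 bp) of 20098 protein-coding genes from GENCODE 44 lifted to GRCh37. Overlapping peaks were counted once. Features that differed by at least 25 percentage points were called. Correlations are Pearson's r over windows. No test was run, since each group is 1 merged list. Counting was tested on simulated data. Genes and loci named are the 10 windows, the 5 longest runs of called windows (ties included) and the 12 genes of at least 20 kb with the largest difference each way, the 3 highest and lowest chromosomes, and, in 15 gene lists, the extreme members and those with a role that helps a reader. Members and lists were chosen with earlier results of these data known. Alternatives were other window sizes, shifted windows, more known sequence, short or long peaks left out, equal scaling of the lists, peak centers, another threshold and promoters in place of gene bodies. The tools were matplotlib 3.10.9, samtools 1.23.1, pyfaidx 0.9.0.4, pandas 2.3.3, numpy 2.4.6 and Python 3.11.15. Some sequences and genes picked by these rules are not reported here.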

Additional observations from a re-analysis of the deposited data

How the results depend on the processing

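Of 118 recomputed values, 83 stayed within their tolerance, 30 moved and 5 reversed. Tolerances differed by result, and some were wide. Leaving out peaks of 20 kb or more took the lamina median from 20.0 to 0 and the glycolysis median from 36.5 to 8.95. Both changes counted as within tolerance. Another 10 of the 83 came from leaving out peaks of under 1000 bp, of which each xChIP list held 1. The count of 83 is therefore no measure of stability. Windows of 50 kb, 200 kb and 1 Mb put H1.2 higher in 63.4%, 68.0% and 73.9% of windows and called 1.14%, 0.0703% and 0% H1.5-higher, and r with GC was 0.779 in 1-Mb windows. Without peaks of 20 kb or more, the mean difference fell to 2.19 percentage points, H1.2 was higher in 55.4% of windows, 4.82% and 2.33% of windows were called H1.2-higher and H1.5-higher, and r with GC was 0.292. The same setting called 15.6% and 7.83% of genes and 17.3% and 9.92% of promoters, set the medians of the polymerase II, ribosomal, granule, myeloid factor and lamina lists to 0, lowered that of glycolysis genes to 8.95, and reversed those of the protocadherin genes (-4.91) and of genes over 500 kb (-0.045). With both lists scaled to the same mean coverage, which sets the mean difference to 0, H1.2 was higher in 42.2% of windows and on 9 chromosomes. That scaling called 8.23% of windows H1.2-higher, and 3.27% of windows, 5.85% of genes and 11.6% of promoters H1.5-higher. It reversed the median of genes over 500 kb (-5.65) and lowered that of synapse genes to -6.39. Peak centers in place of covered bases put H1.2 higher in 43.9% of windows and H1.5 higher in 42.5%, with 13.6% equal. A threshold of 50 percentage points called 5.81% and 0.0176%. Promoters in place of gene bodies gave medians of 82.4 for glycolysis, 93.1 for lamina genes and 0 for genes over 500 kb. The cause was not tested. Leaving out peaks of under 2000 bp, an alternative chosen after seeing the data, moved none of 10 values beyond its tolerance.

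No paired analysis was possible because each list merges its 3 replicates, and leaving out single replicates could not be run for the same reason. Depth is unknown.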

Other observations

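The difference followed H1.2 coverage more closely than H1.5 coverage. Over 28422 windows r of the difference was 0.867 with H1.2 coverage and 0.0449 with H1.5 coverage, as a description of values that share their terms. The decile of windows with the largest difference had 76.0% H1.2 and 21.3% H1.5 coverage, and the decile with the lowest had 11.6% and 24.3%. In decile 6, in between, H1.5 covered 12.7%. The windows were sorted by the difference itself, so high H1.5 coverage in the lowest decile follows in part from the sort.

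The same contrast in xxChIP did not follow these windows. The xxChIP difference of H1.2 minus H1.5 had a mean of 2.99 percentage points and r of -0.0685 with the xChIP difference. It was 3.95 in the decile of windows lowest in the xChIP difference and 2.02 in the highest. In the 85 H1.5-higher windows, xxChIP coverage was 32.9% for H1.2 and 29.3% for H1.5, and in the 4980 H1.2-higher windows 9.44% and 7.56%.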
